A study of Mus musculus with 45 samples.

Results

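The genes followed here are 36 genes of glycolysis, of lactate and pyruvate handling and of the hypoxia response, taken by name from the 23420 genes in each deposited file. All 36 passed the filter on low counts that left 10287 genes for testing. By role they divide into 4 genes of glucose entry, 9 of upper glycolysis, 6 of lower glycolysis, 6 of lactate and pyruvate handling, 3 for the hypoxia-inducible factor (HIF) and its hydroxylases, and 8 HIF targets outside glycolysis. They were measured by RNA sequencing in 45 libraries of C57BL/6 mouse dendritic cells derived from bone marrow in GM-CSF (20 ng/ml), in 9 groups of 5 biological replicates. Before lysis the live cells were sorted for high CD11c, a surface integrin of dendritic cells. Wild type (WT) cells were compared with Bat3 fl/fl CD11c Cre cells (KO), in which a floxed Bat3 gene can be deleted by a Cre driven from the CD11c promoter, so that deletion is limited to cells that use this promoter. Each genotype was kept for 8 h in medium or treated for 8 h with lipopolysaccharide (LPS), a bacterial ligand of Toll-like receptor 4, with 4µ8C, an inhibitor of the IRE1 RNase, or with 4PBA (4-phenylbutyrate), a chemical chaperone. A further WT group received rapamycin, an inhibitor of the kinase complex mTORC1. The labels name 1 agent per group and no vehicle group, and whether LPS was also present in the 4µ8C, 4PBA and rapamycin groups is not given in the sources used here.

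Glycolysis turns glucose into pyruvate and yields ATP without oxygen. Lactate dehydrogenase then reduces pyruvate to lactate, and monocarboxylate transporters carry lactate out of the cell. HIF-1 is a transcription factor whose alpha subunit is hydroxylated by EGLN enzymes and degraded when oxygen is plentiful, and many glycolytic genes are among its known targets. Dendritic cells and macrophages activated through Toll-like receptors are known to raise glucose uptake and glycolysis, and mTORC1 is known to promote the synthesis of HIF-1 alpha.

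Known HIF sites share the core letters ACGTG or GCGTG, so promoters were searched for both, on both strands. Promoter sequences came from RefSeq (GRCm38.p6) and span 250 bases before to 50 bases after the start farthest upstream. A promoter was found for 35 of the 36 genes, with Ero1l listed there as Ero1a, and none was matched for Ndrg1. At least 1 core match was present in 29 of the 35 (82.9%), against 11848 of 27025 (43.8%) promoters of all genes, with base composition not matched between these sets. The 36 genes were picked by name as glycolysis and HIF genes, so their share describes that choice and is no test. The 27025 include genes that were not tested here. The E-box CACGTG, which holds the core on both strands, was present in 5 of the 35 (14.3%) and in 1956 of the 27025 (7.24%). The 4 promoters below belong to the genes called in all 7 comparisons with medium, ranked by mean absolute change. They are Pfkfb3 (chr2:11553880-11554179, minus strand, 1 match), Adm (chr7:110627407-110627706, plus strand, 2 matches), Vegfa (chr17:46032328-46032627, minus strand, 0 matches) and Hif1a (chr12:73907617-73907916, plus strand, 3 matches, of which 2 overlap in a CACGTG). They are written 5′ to 3′ on the strand of the gene, with core matches on either strand in capitals, and a match is a match of letters, not a measured binding site.
Pfkfb3: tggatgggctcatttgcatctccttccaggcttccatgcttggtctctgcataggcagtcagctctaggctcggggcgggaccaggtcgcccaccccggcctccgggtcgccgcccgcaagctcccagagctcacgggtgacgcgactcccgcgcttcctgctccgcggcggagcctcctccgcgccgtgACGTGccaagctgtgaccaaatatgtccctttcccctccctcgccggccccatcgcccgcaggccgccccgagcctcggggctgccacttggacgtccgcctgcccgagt
Adm: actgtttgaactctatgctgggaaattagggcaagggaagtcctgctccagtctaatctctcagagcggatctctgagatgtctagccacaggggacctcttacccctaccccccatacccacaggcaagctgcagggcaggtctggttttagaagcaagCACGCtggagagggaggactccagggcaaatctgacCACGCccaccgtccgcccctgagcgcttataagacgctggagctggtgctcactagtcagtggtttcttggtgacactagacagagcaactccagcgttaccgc
Vegfa: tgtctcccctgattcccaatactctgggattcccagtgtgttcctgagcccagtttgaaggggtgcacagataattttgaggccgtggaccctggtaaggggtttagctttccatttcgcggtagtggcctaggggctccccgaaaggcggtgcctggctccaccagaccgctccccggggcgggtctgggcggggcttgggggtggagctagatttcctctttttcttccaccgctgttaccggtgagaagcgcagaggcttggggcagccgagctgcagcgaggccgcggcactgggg
Hif1a: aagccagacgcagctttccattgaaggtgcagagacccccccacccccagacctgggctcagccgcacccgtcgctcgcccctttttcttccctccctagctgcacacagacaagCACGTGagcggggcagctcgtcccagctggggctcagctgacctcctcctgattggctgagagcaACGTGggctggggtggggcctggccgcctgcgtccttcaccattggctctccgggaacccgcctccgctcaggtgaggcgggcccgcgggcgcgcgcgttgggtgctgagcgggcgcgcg
The Ldha promoter held 7 matches, the most among the 35, and those of Hk1, Gpi1, Aldoa, Tpi1, Eno2 and Vegfa held none in this window.

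The libraries held between 1509219 and 4737736 expected counts each, and the lowest belonged to WT 4µ8C replicate 4, which stood apart from its group for many of the 36 genes. Levels are given as CPM, that is counts relative to TMM-adjusted library sizes, in the order of replicates 1 to 5, and a called difference is one with an edgeR adjusted p under 0.05 over all genes tested. Bag6, the current name of Bat3, stood at 14.4 ± 2.16 CPM in WT medium and 9.22 ± 2.83 in KO medium (mean ± SD, n = 5), and the libraries of both genotypes overlapped. The 10 genes of an LPS response list summed to between 6753 and 13773 CPM in WT medium, 34544 and 40685 in WT LPS, 33497 and 54520 in WT 4µ8C, 28143 and 32810.5 in WT 4PBA, and 3299 and 5144 in WT rapamycin. Of the dendritic cell markers, Cd209a was at 0 in every library of 6 groups, while the summed level of all 8 markers ran from 1768 to 6200.1 CPM. The summed level of 9 macrophage markers, of which 8 had a row, ran from 1268 to 2943 CPM and was lower with LPS than in medium in the group medians of both genotypes (2029.8 against 2602 in WT, 1919 against 2139 in KO). With 4PBA it did not overlap medium in either genotype (1435 to 2029.7 against 2163 to 2943 CPM in WT, 1343 to 1798 against 1871 to 2358 in KO). With rapamycin the dendritic cell sum (1768 to 2726 against 2948 to 3734 CPM) and the neutrophil sum (17.7 to 33.3 against 40.8 to 76.0) lay below those of WT medium without overlap. Neutrophil markers summed to 17.7 to 148 CPM over all libraries. In KO medium their sum (27.4 to 33.5 CPM) lay below that of WT medium without overlap. It also lay below KO LPS (56.4 to 96.5), KO 4µ8C (43.1 to 88.9) and KO 4PBA (40.7 to 73.6) without overlap. In WT cells the neutrophil sums with LPS, 4µ8C and 4PBA overlapped medium. The marker sums of T cells, B cells, erythroid cells and mast cells did not exceed 5.37 CPM. The part of other cells in the results was not tested, and in RNA from sorted pools fewer cells of a type and less RNA per cell cannot be told apart. Library codes in the labels, read here as plate positions, were outer for all WT medium and WT LPS libraries and inner for all KO medium and 4PBA libraries. Of all genes, 4.05% differed between outer and inner codes within groups, and 0 of the 36 did in edgeR, with a median log2 difference of 0.09. Only WT 4µ8C, WT rapamycin, KO LPS and KO 4µ8C held both codes, and their few outer libraries include WT 4µ8C replicate 4. An effect of position on the 36 may thus have been missed.

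In resting WT cells the common glycolytic enzymes were far above the regulators and rare isoforms, as compared on TPM, RSEM's length-corrected transcript measure. Gapdh, the enzyme that reduces NAD in mid-pathway, was highest at 12853 ± 883 TPM (SD, n = 5), and Ldha, the main lactate dehydrogenase subunit, followed at 5852 ± 637 TPM. Aldoa, the main aldolase, stood at 4299 ± 286 TPM, and Eno1, the common enolase, at 2643 ± 257 TPM. Within each enzyme family 1 or 2 isoforms carried most of the signal. Hk3 stood at 165 ± 27.3 TPM, above Hk2 at 59.7 ± 13 and Hk1 at 48.7 ± 9.36. The ranges of Hk2 and Hk1, from 46.8 to 81.2 and from 41.5 to 64.9 TPM, overlapped. Within each of the 5 libraries Hk2 was above Hk1. Among the phosphofructokinases the liver form Pfkl (197 ± 17.6 TPM) and the platelet form Pfkp (131 ± 13.6) lay far above the muscle form Pfkm (3.53 ± 1.17). Ldhb (3.75 ± 1.93 TPM), the neuronal enolase Eno2 (1.09 ± 0.604) and the muscle enolase Eno3 (3.22 ± 1.23) were near the limit of detection. Slc16a3, the lactate exporter MCT4, stood at 462 ± 77.1 TPM, and Slc16a1, the transporter MCT1, at 1.7 ± 0.721 TPM. The expected counts of Eno2, Eno3, Ldhb and Pfkm lay between 1 and 57.0 in every library, so that their values carry large counting error. Gapdh, Eno1, Ldha, Pgk1, Tpi1, Pgam1 and Aldoa have near-identical pseudogene copies, and the share of their counts that was assigned by estimation is uncertain.

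LPS raised the genes of glucose entry, the HIF alpha subunit, its hydroxylases and most HIF targets, while the enzymes of mid-pathway moved little. Of the 36 genes, 20 rose and 3 fell in WT cells (55.6% and 8.33%), against 18.8% higher and 21.3% lower of all genes tested. In KO cells 23 rose and 1 fell (63.9% and 2.78%), against 16.7% and 18.5% of all genes. The median log2 fold change of the 36 was 0.42 in WT and 0.50 in KO cells, and that of all genes was -0.07 and -0.08. The split depended on scaling. With library totals in place of TMM factors, where the median of all genes moved to -0.37 and -0.47, 14 rose and 8 fell in WT cells, against 10.7% higher and 38.5% lower of all genes, and 13 rose and 7 fell in KO cells, against 7.28% and 46.5%. With the replicate block, since replicate numbers paired the KO libraries, Aldoc was also called lower and Eno1 and Ankrd37 higher in KO cells (edgeR adjusted p = 0.012, 0.039 and 0.045). The medium libraries are shared by every comparison with medium within a genotype, so those comparisons are given side by side and not as support for each other.

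All 4 genes of glucose entry rose with LPS in both genotypes. Slc2a1, the glucose transporter GLUT1, stood at 704, 419, 259, 334 and 434 CPM in WT medium and at 968, 961, 773, 919 and 1092 CPM in WT LPS. Every LPS library was above every medium library, with a log2 fold change of 1.13 ± 0.14 (SE; edgeR adjusted p = 8.8e-09). In KO cells Slc2a1 rose by 1.17 ± 0.14 on the log2 scale (edgeR adjusted p = 4.7e-09). Hk2, the inducible hexokinase, rose from 213 ± 45.4 to 507 ± 45.5 CPM in WT cells (mean ± SD, n = 5). Hk1, the constitutive hexokinase, changed by 0.96 and Hk3, the hexokinase of myeloid cells, by 0.96 on the log2 scale in WT cells. The KO values were 0.97 for Hk2, 0.88 for Hk1 and 0.68 for Hk3. Without TMM factors Hk3 in KO cells was no longer called (log2 fold change 0.28, edgeR adjusted p = 0.15).

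In upper glycolysis the regulators moved in opposite directions. Pfkfb3, a bifunctional enzyme whose product fructose 2,6-bisphosphate activates phosphofructokinase, stood at 245, 211, 163, 192 and 317 CPM in WT medium and at 948, 879, 816, 952 and 1079 CPM in WT LPS. The groups did not overlap, and the log2 fold change was 2.05 ± 0.21 (edgeR adjusted p = 5e-11). In KO cells Pfkfb3 stood at 365, 192, 173, 389 and 290.0 CPM in medium and at 953, 737, 803, 886 and 988 CPM with LPS, a log2 fold change of 1.63 ± 0.20. Its paralog Pfkfb4 fell, from 34.1 ± 6.12 to 13 ± 2.95 CPM in WT cells (log2 fold change -1.38 ± 0.19) and at -1.05 ± 0.19 in KO cells. Aldoa and Aldoc, both aldolases, fell in WT cells, with log2 fold changes of -0.28 and -0.62, and in KO cells their values of -0.01 and -0.32 did not pass the test. The call of Aldoa was lost without any 1 of WT medium replicates 1 and 2 or WT LPS replicates 1, 2 and 3. Gpi1, glucose-6-phosphate isomerase, Pfkm and Pfkp did not pass in either genotype. Pfkl and Tpi1, triosephosphate isomerase, were called in KO cells, at 0.30 and 0.52 on the log2 scale, and Pfkl lost its call without KO LPS replicate 1. Pfkl changed sign with library totals (-0.10).

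In lower glycolysis the abundant enzymes shifted by small amounts whose sign depended on scaling. Pgam1, phosphoglycerate mutase, changed by 0.27 ± 0.10 on the log2 scale in WT and 0.39 ± 0.10 in KO cells (edgeR adjusted p = 0.03 and 0.0024). With library totals those values were -0.03 and -0.01 and were not called, and the WT call was lost without any 1 of WT medium replicates 2, 3 and 4 or WT LPS replicates 4 and 5. Gapdh stood at 8867 ± 1478 CPM in WT medium and 9572 ± 269 in WT LPS, a log2 fold change of 0.11 that did not pass. Its KO value of 0.36 passed (edgeR adjusted p = 0.0073) and turned to -0.04 with library totals. Pgk1, phosphoglycerate kinase, and Eno1 did not pass in either genotype, at 0.03 and -0.04 on the log2 scale in WT cells. Eno2 was called higher in both genotypes, at 1.75 ± 0.925 CPM in WT medium and 5.79 ± 2.37 in WT LPS (log2 fold change 1.64 ± 0.43), at very low counts.

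Among the genes of lactate and pyruvate, Ldha rose with LPS by 0.35 ± 0.12 on the log2 scale in WT and 0.55 ± 0.12 in KO cells. With library totals the values were 0.06 and 0.15, with edgeR adjusted p = 0.55 and 0.13, and the WT call was lost without WT medium replicate 3. Slc16a1 was called in WT cells, at 0.93 ± 0.31, where the call was lost without WT medium replicate 1 or WT LPS replicate 5, and not in KO cells, at 0.31 ± 0.27. Slc16a3 rose by 0.52 ± 0.12 and 0.40 ± 0.12, which became 0.23 and 0.01 with library totals. Pdk3, a kinase that inactivates pyruvate dehydrogenase, stood at 116, 97.8, 90.9, 70.1 and 69.3 CPM in WT medium and 119, 135, 132, 133 and 95.9 CPM in WT LPS. These groups overlapped, and the log2 fold change was 0.46 ± 0.17 in WT (edgeR adjusted p = 0.023) and 0.87 ± 0.17 in KO cells (edgeR adjusted p = 5.1e-05). The WT call of Pdk3 was lost without any 1 of WT medium replicates 4 and 5 or WT LPS replicates 2 and 4. Its relative Pdk1 and the second dehydrogenase subunit gene Ldhb did not pass in any of the 7 comparisons with medium.

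The transcript of the HIF-1 alpha subunit itself rose with LPS. Hif1a stood at 271, 329.9, 388, 409 and 522 CPM in WT medium and at 1248, 1329, 997, 1243 and 1179 CPM in WT LPS, with no overlap. In KO cells the values were 527, 556, 549, 326 and 354 CPM in medium and 1210.1, 1314, 1314, 913 and 1115 CPM with LPS. The log2 fold changes were 1.64 ± 0.16 in WT and 1.34 ± 0.16 in KO cells (edgeR adjusted p = 4e-12 and 1.3e-09). The hydroxylases that mark HIF-1 alpha for degradation rose as well. Egln3 changed by 0.77 ± 0.15 and 0.75 ± 0.15 on the log2 scale and Egln1 by 0.64 ± 0.15 and 0.49 ± 0.15, in WT and KO cells. With library totals Egln1 in KO cells was no longer called (0.09, edgeR adjusted p = 0.58).

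Of the 8 HIF targets outside glycolysis, 6 rose with LPS in WT and 7 in KO cells, and 0 fell in either. With library totals 5 were called higher in WT and 5 in KO cells, and 0 lower. Adm, the peptide hormone adrenomedullin, stood at 26.2, 14.2, 7.99, 9.65 and 20.2 CPM in WT medium and at 32, 24.7, 28.5, 24 and 63.4 CPM in WT LPS. Those groups overlapped, and WT LPS replicate 5 was the highest. The log2 fold change of Adm was 1.15 ± 0.27 in WT and 1.23 ± 0.25 in KO cells (edgeR adjusted p = 0.00069 and 0.00015). Vegfa, the vascular growth factor, rose at a low level, from 5.15, 4.81, 3.26, 4.83 and 10.2 CPM in WT medium to 14.7, 11.8, 12.5, 13.9 and 15.4 CPM in WT LPS. Its expected counts ranged from 6 to 66.0 over the libraries, and its log2 fold change was 1.24 ± 0.24 in WT and 1.64 ± 0.24 in KO cells. Ero1l, an oxidase of the endoplasmic reticulum, stood at 513, 994, 1149.7, 1359 and 1629 CPM in WT medium and 2943, 2596, 2408, 2868 and 1982 CPM in WT LPS, with a log2 fold change of 1.18 ± 0.18. In KO cells, whose medium libraries began higher, Ero1l changed by 0.57 ± 0.18. Bnip3, a mitophagy receptor, rose by 0.87 ± 0.13 and 0.91 ± 0.13, and the collagen prolyl hydroxylases P4ha1 and P4ha2 rose by 0.77 and 0.67 in WT and by 0.86 and 0.91 in KO cells. Ankrd37 did not pass in either genotype, and Ndrg1, a gene linked to stress and differentiation, passed in KO cells (0.57 ± 0.16) and not in WT cells (0.10 ± 0.16).

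**Figure D1:**
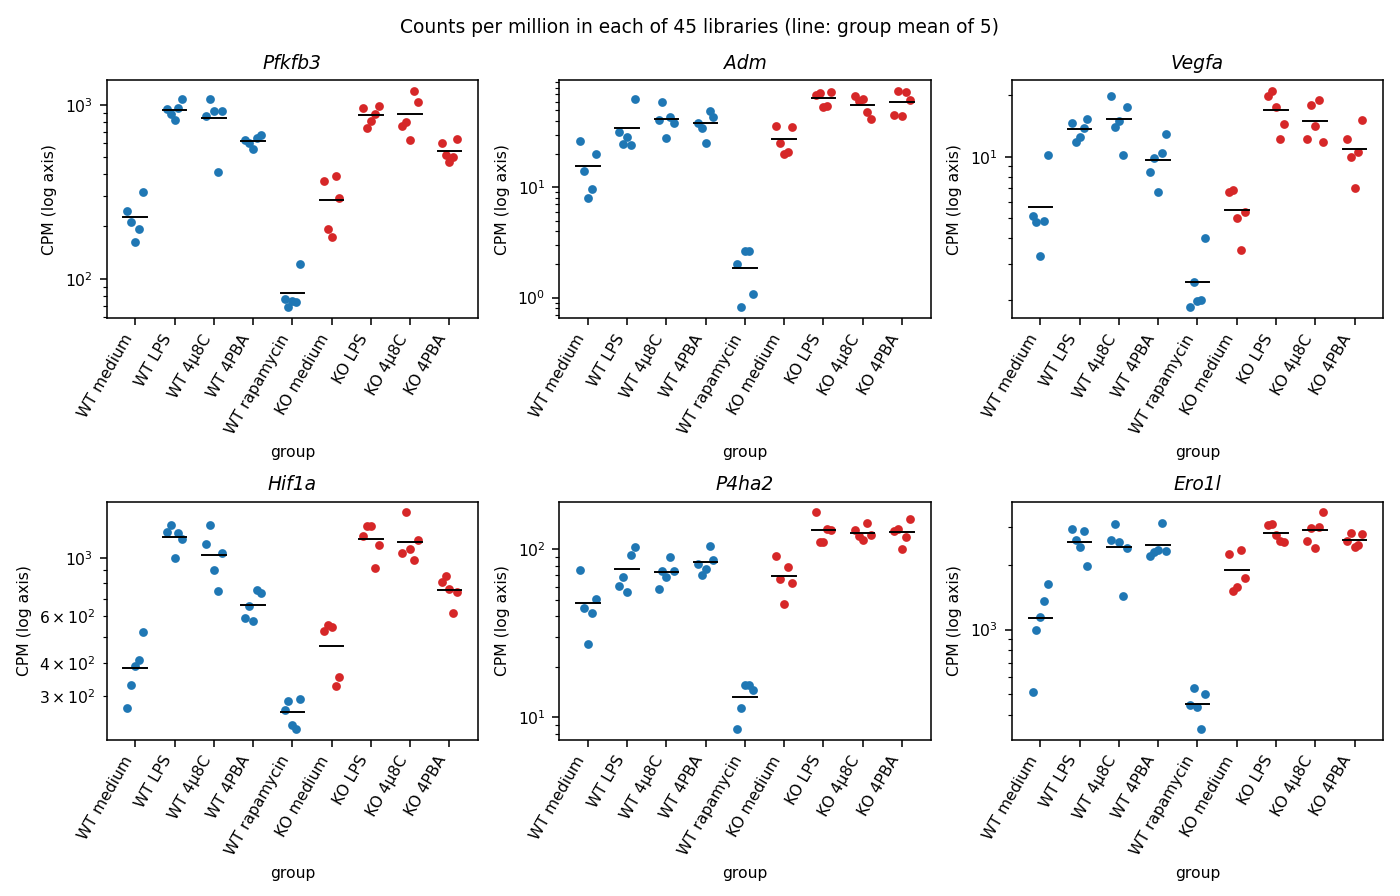
CPM on log axes of 6 genes called in all 7 comparisons with medium and ranked first by mean absolute change, 1 point per library (blue WT, red KO) and a line at the mean of the 5 libraries in a group. The rapamycin libraries lie below the other WT groups in all 6 panels, though Hif1a, Vegfa and Ero1l overlap WT medium, and 1 WT 4µ8C library (411 CPM) lies below the rest of its group for Pfkfb3.

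Between the genotypes, which share no libraries, 19 genes rose with LPS in both. These are 95.0% of the 20 called higher in WT and 82.6% of the 23 in KO cells. The overlap among all genes was not counted. Slc16a1 was called higher in WT cells alone, and Gapdh, Ndrg1, Pfkl and Tpi1 in KO cells alone. Such a difference in calls is not a difference in response, which is tested with the interactions at the end.

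The cells labelled 4µ8C showed values close to those of the LPS groups. In WT cells 23 of the 36 genes were higher than in medium and 1 lower, against 20.0% and 20.1% of all genes, and in KO cells 24 were higher and 2 lower, against 16.1% and 16.6%. With library totals the splits were 14 higher and 7 lower in WT cells, against 10.8% and 40.3% of all genes, and 14 higher and 5 lower in KO cells, against 7.96% and 40.1%. Pfkfb3 stood at 865, 1079, 924, 411 and 915 CPM in WT and at 751, 793, 629.6, 1198 and 1041 CPM in KO 4µ8C libraries, with log2 fold changes over medium of 1.90 ± 0.21 and 1.65 ± 0.20. Hif1a changed by 1.42 ± 0.16 and 1.31 ± 0.16 on the log2 scale, Slc2a1 by 1.20 ± 0.14 and 1.03 ± 0.14, and Bnip3 by 1.02 ± 0.13 and 0.87 ± 0.13. In WT cells Pfkfb4 was the 1 gene of the 36 called lower, at -1.38 ± 0.19, and it was joined by Aldoc in KO cells (-0.55 ± 0.19), whose call was lost without any 1 of KO medium replicates 2 and 3 or KO 4µ8C replicates 1 and 4. WT 4µ8C replicate 4 was high for abundant enzymes and low for Hk1. Its Gapdh level was 14579 CPM against 8932 to 10127 CPM in the other 4, and its Hk1 level 92.6 CPM against 234 to 289 CPM. Without it Gapdh lost its call in WT cells, as it also did without any 1 of WT medium replicates 2 to 5. Without it Aldoa and Aldoc became called lower, and the counts were 22 higher and 3 lower.

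Set directly against LPS, 4µ8C gave no called difference at any of the 36 genes in either genotype. The edgeR counts were 0 higher and 0 lower in WT cells, against 0.204% higher and 0% lower of all genes, and 0 and 0 in KO cells, against 0% and 0.0292%. At an unadjusted p under 0.05, 1 gene passed in WT and 2 in KO cells, all lower with 4µ8C, and DESeq2 called 0 in both. Fitted log2 differences ran from -0.60 to 0.40 in WT and from -0.65 to 0.59 in KO cells, with the largest at genes of low counts. For Pfkfb3 the difference from LPS was -0.15 ± 0.20 in WT and 0.02 ± 0.20 in KO cells, and for Hif1a it was -0.22 ± 0.15 and -0.03 ± 0.15.

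**Figure D2:**
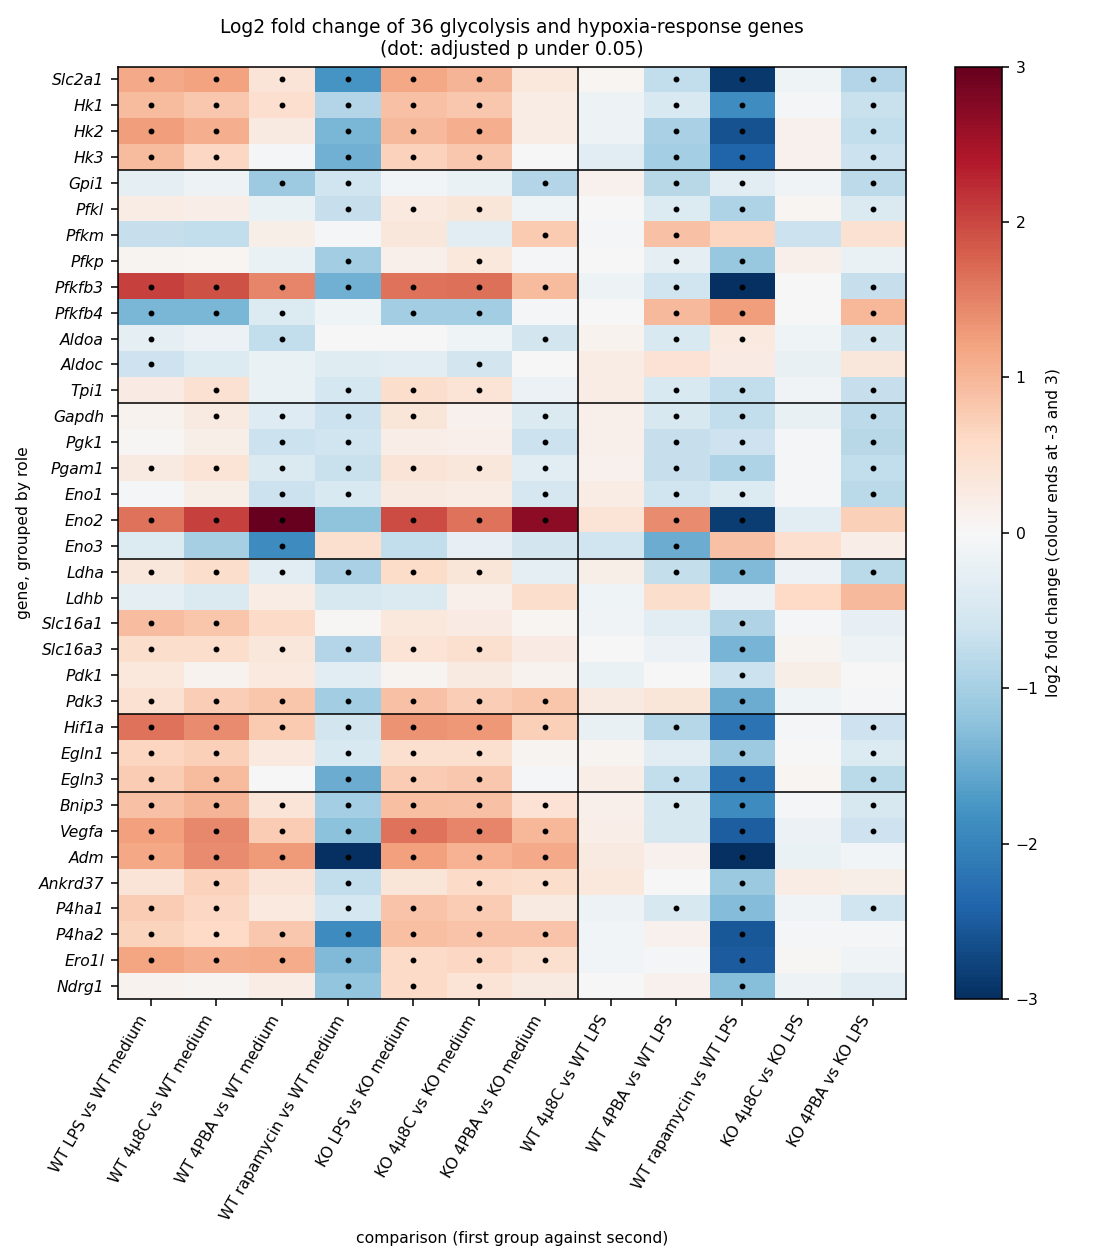
Log2 fold change of the 36 genes (rows, grouped by role) in 7 comparisons with medium and 5 with LPS (columns), red for higher and blue for lower in the first group, with a dot where the edgeR adjusted p was under 0.05. The 2 columns of 4µ8C against LPS hold no dot, and the columns of rapamycin are blue in nearly all rows.

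The cells labelled 4PBA split the set by role. Of the 8 HIF targets outside glycolysis 5 were higher than in medium in WT and 6 in KO cells, and Hif1a and Pfkfb3 were higher in both, while several abundant glycolytic enzymes were lower. In WT cells 12 genes were higher and 9 lower, against 22.4% and 21.3% of all genes, and in KO cells 11 were higher and 6 lower, against 17.0% and 16.2%. The shares called higher, 33.3% and 30.6%, and lower, 25.0% and 16.7%, were thus nearer to those of all genes than with LPS. With library totals 12 were higher and 11 lower in WT cells, against 20.6% and 22.7% of all genes, and 9 higher and 8 lower in KO cells, against 14.3% and 19.4%. The WT medium codes were outer and those of 4PBA inner throughout, and with position as a term 8 genes were higher and 5 lower in WT cells, against 14.7% and 12.4% of all genes. The WT calls lost with that term were those of Slc2a1, Hk1, Slc16a3 and Vegfa, which were higher, and of Pfkfb4, Gapdh, Pgam1 and Ldha, which were lower. In KO cells the medium libraries also had inner codes. The counts there with the term were 11 and 6, against 17.4% and 16.9% of all genes. Replicate numbers paired these libraries, and with the replicate block Hk2, Ankrd37 and P4ha1 were also called higher in WT cells (edgeR adjusted p = 0.027, 0.031 and 0.024). In KO cells the block added Slc2a1, Slc16a3 and Ndrg1 as higher and Ldha as lower (edgeR adjusted p = 0.038, 0.03, 0.049 and 0.044) and ended the call of Ero1l (edgeR adjusted p = 0.064).

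Lower levels were called for Gpi1, Aldoa and the enzymes of lower glycolysis, of which 5 of 6 were lower in WT and 4 of 6 in KO cells. With the position term 3 of these 6 were lower in WT and 4 in KO cells, since Gapdh and Pgam1 lost their WT calls (edgeR adjusted p = 0.088 and 0.085). Gpi1 stood at 3689, 3187, 2231, 2322 and 2472 CPM in WT medium and at 1267, 1459.8, 1262, 1377 and 1104 CPM in WT 4PBA, with no overlap. Its log2 fold change was -1.10 ± 0.12 in WT and -0.88 ± 0.12 in KO cells (edgeR adjusted p = 4.1e-10 and 2e-07). Aldoa fell in both genotypes, with log2 fold changes of -0.75 ± 0.11 in WT and -0.55 ± 0.11 in KO cells. Pgk1 fell likewise, at -0.65 ± 0.12 and -0.65 ± 0.11, and so did Eno1, at -0.65 ± 0.12 and -0.51 ± 0.12. Gapdh changed by -0.38 ± 0.11 and -0.43 ± 0.11. Pgam1 stood at 2926, 2387, 2116, 2252 and 2402 CPM in WT medium and 1929.7, 1862, 1702, 1810.4 and 1678 CPM in WT 4PBA, and at 2453, 2273, 2291, 2545 and 2506 and 1796, 1937, 1926, 1951 and 1922 CPM in the KO groups. The 4PBA libraries were lower than every medium library of their genotype, with log2 fold changes of -0.43 ± 0.10 and -0.34 ± 0.10. Eno3, at 2.84 ± 1.01 CPM or less, and Ldha were also called lower in WT cells, at -1.89 ± 0.50 and -0.35 ± 0.12, and not in KO cells, at -0.56 ± 0.44 and -0.26 ± 0.12. The WT call of Ldha was lost without WT medium replicate 1 or WT 4PBA replicate 5. Eno2 went the other way, from 2.21, 0.802, 2.96, 0.852 and 1.95 CPM in WT medium to 19.3, 15.8, 18.3, 14.4 and 7.91 CPM in WT 4PBA. Its log2 fold change of 3.06 ± 0.39 in WT and 2.69 ± 0.41 in KO cells was the highest of the 36 in both.

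Among regulators and targets, Pfkfb3 stood at 627, 599.6, 554, 642 and 674 CPM in WT 4PBA and 599, 515, 466, 498 and 637 CPM in KO 4PBA, above every medium library of its genotype. The log2 fold changes were 1.46 ± 0.20 and 0.95 ± 0.20 (edgeR adjusted p = 1.3e-07 and 0.00027). Adm stood at 38.2, 34.7, 25, 49 and 43.8 CPM in WT and 45.4, 74.6, 44.7, 73.2 and 61.4 CPM in KO 4PBA libraries, and changed by 1.28 ± 0.27 and 1.14 ± 0.25. Hif1a stood at 591, 656, 578, 753 and 737 CPM in WT and 806, 856, 761, 617 and 745 CPM in KO 4PBA libraries, above all medium libraries of the same genotype, and changed by 0.79 ± 0.16 and 0.71 ± 0.16. These levels lay below all LPS libraries of the same genotype. Pdk3 changed by 0.84 ± 0.17 and 0.83 ± 0.17, P4ha2 by 0.81 ± 0.18 and 0.86 ± 0.18, Vegfa by 0.77 ± 0.25 and 1.00 ± 0.25, Bnip3 by 0.39 ± 0.13 and 0.44 ± 0.13 and Ero1l by 1.12 ± 0.18 and 0.47 ± 0.18. The WT call of Bnip3 was lost without WT medium replicate 3. The KO call of Ero1l was lost without any 1 of KO medium replicates 2, 3 and 5 or KO 4PBA replicates 1, 2 and 5. The glucose transporter Slc2a1 and Hk1 were called in WT cells, at 0.38 ± 0.14 and 0.51 ± 0.15, and not in KO cells, at 0.31 ± 0.14 and 0.22 ± 0.15, while Hk2, Hk3, Egln1 and Egln3 passed in neither. The WT call of Slc2a1 was lost without any 1 of 5 libraries, WT medium replicates 2, 3 and 4 and WT 4PBA replicates 1 and 2. With the position term neither Slc2a1 nor Hk1 was called in WT cells (0.41 and 0.28, edgeR adjusted p = 0.082 and 0.25).

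Against LPS, 4PBA held 3 genes higher and 20 lower in WT cells, against 15.0% and 12% of all genes, and 1 higher and 20 lower in KO cells, against 12.9% and 11.5%. With library totals, where the median of all genes moved to 0.29 and 0.36, the splits were 5 higher and 12 lower in WT cells, against 28.3% and 4.23% of all genes, and 6 higher and 11 lower in KO cells, against 34.1% and 3.57%. All WT LPS libraries had outer codes, and with the position term 5 were higher and 16 lower in WT cells, against 8.18% and 6.66% of all genes, with Pfkp, Aldoa, Tpi1 and Bnip3 no longer called lower and Aldoc and Pdk3 called higher. With the replicate block 5 were higher and 20 lower in WT cells, against 16.8% and 14.3% of all genes. In KO cells 3 were higher and 21 lower, against 15.0% and 14.1%. The block added Aldoc in both genotypes (edgeR adjusted p = 0.0017 and 0.015), Pdk3 in WT cells (0.024) and Ldhb (0.026) and, as lower, Ndrg1 (0.03) in KO cells. All 4 glucose entry genes were lower in both genotypes, with Slc2a1 at -0.75 ± 0.14 and -0.87 ± 0.14 and Hk2 at -0.97 ± 0.14 and -0.75 ± 0.14 on the log2 scale. With library totals 3 of these 4 were called lower in WT and 2 in KO cells, Hk1 losing its call in both and Hk3 in KO cells. Ldha was lower by -0.71 ± 0.12 and -0.81 ± 0.12, and Pgk1 by -0.68 ± 0.12 and -0.83 ± 0.12. Egln3 was lower by -0.75 ± 0.15 and -0.80 ± 0.15, and its levels of 775 ± 72.7 CPM in WT and 799 ± 37.7 CPM in KO cells were not called against medium (762 ± 224 and 827 ± 185 CPM). Pfkfb4 was higher than with LPS in both genotypes, at 0.97 ± 0.19 and 1.00 ± 0.19. Adm, P4ha2, Ero1l and Ankrd37 were not called against LPS in either genotype, nor were Ndrg1 and Pdk3 without the block or the position term. The same genes were called lower in both genotypes in 18 cases, 90.0% of each list of 20, and the overlap among all genes was not counted.

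**Figure D3:**
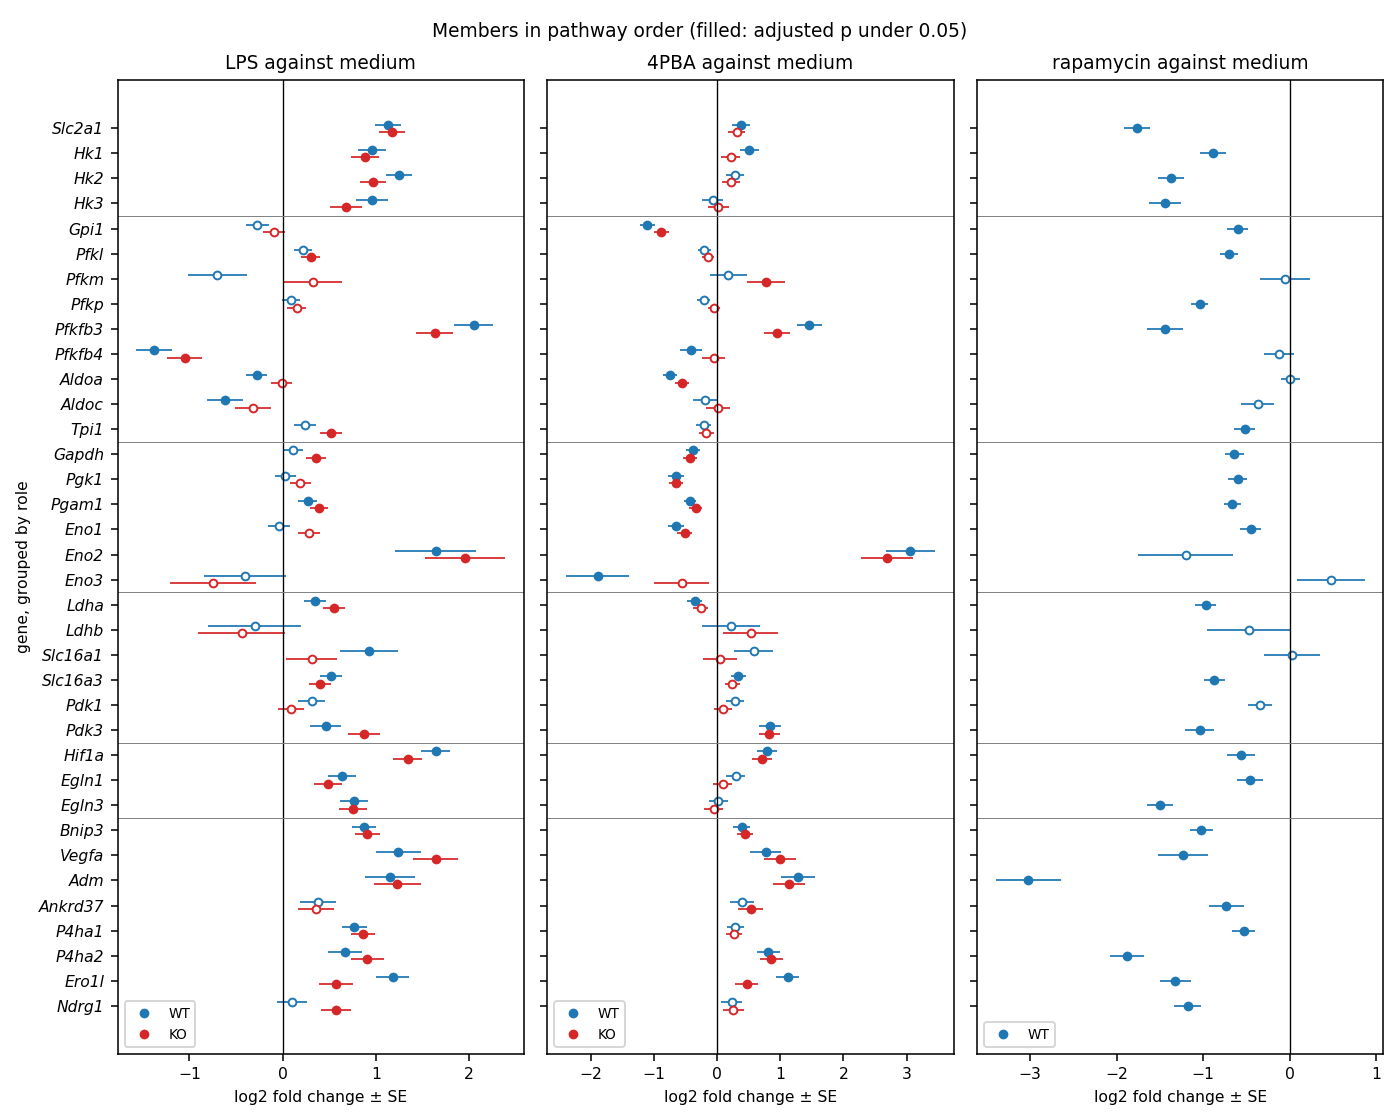
Log2 fold change ± SE of each gene against medium, in pathway order, for LPS, 4PBA and rapamycin (blue WT, red KO, filled where the edgeR adjusted p was under 0.05). With 4PBA the run from Gapdh to Eno1 lies left of 0 in both genotypes while Pfkfb3, Hif1a and most HIF targets lie right of it, and with rapamycin 33 of 36 genes lie left of 0.

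Most of the 36 genes were lower with rapamycin, given to WT cells, than in medium. Of the 36 genes 27 fell and 0 rose (75.0% and 0%), against 13.5% lower and 9.68% higher of all genes tested in edgeR. At an unadjusted p under 0.05, 29 were lower and 0 higher, and DESeq2 called 27. The median log2 fold change was -0.72, against -0.02 for all genes. With library totals 25 fell and 0 rose, against 8.59% and 17.3% of all genes. All 4 genes of glucose entry and all 8 HIF targets outside glycolysis were among those that fell.

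Adm fell most, from 26.2, 14.2, 7.99, 9.65 and 20.2 CPM in WT medium to 2.03, 0.814, 2.63, 2.67 and 1.07 CPM in WT rapamycin. No rapamycin library reached the lowest medium library, and the log2 fold change was -3.02 ± 0.38 (edgeR adjusted p = 5.5e-08). P4ha2 fell from 75.8, 44.9, 27.5, 41.7 and 50.4 CPM to 8.53, 11.4, 15.5, 15.6 and 14.6 CPM, without overlap, at -1.88 ± 0.20 on the log2 scale (edgeR adjusted p = 8.7e-10). Slc2a1 stood at 130.0, 123, 138, 114 and 129.7 CPM in the rapamycin libraries, below every medium library, with a log2 fold change of -1.76 ± 0.15 (edgeR adjusted p = 5.7e-13). Hk3 changed by -1.44 ± 0.18, Hk2 by -1.37 ± 0.15 and Hk1 by -0.89 ± 0.15. Pfkfb3 stood at 76.8, 68.4, 74.4, 73.8 and 121 CPM, with replicate 5 above the others of its group and all 5 below the medium libraries, a log2 fold change of -1.44 ± 0.21. Vegfa fell to 1.83, 2.44, 1.97, 2 and 3.99 CPM (-1.23 ± 0.29), which overlapped medium in replicate 5.

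Most core enzymes fell by smaller amounts than the genes just named, though Ldha and Pfkp fell by more than Hk1. Ldha changed by -0.97 ± 0.12, Pgam1 by -0.66 ± 0.10, Gapdh by -0.64 ± 0.11, Pgk1 by -0.60 ± 0.11, Gpi1 by -0.60 ± 0.12, Tpi1 by -0.52 ± 0.12 and Eno1 by -0.45 ± 0.12 on the log2 scale. Aldoa was an exception among them, with 3767 ± 551 CPM in medium and 3793 ± 296 CPM in rapamycin (0.01 ± 0.11). Pfkp (-1.04 ± 0.10) and Pfkl (-0.70 ± 0.10) fell, and Pfkfb4 (-0.12 ± 0.17) and Slc16a1 (0.03 ± 0.32) did not pass. Bnip3 stood at 320.1, 363, 323, 316 and 339 CPM, Ero1l at 445, 537, 435, 346 and 501 CPM and Pdk3 at 37.6, 45.6, 49.7, 45.8 and 38.1 CPM in the rapamycin libraries, and the values of Bnip3 and Pdk3 were all below every medium library. Ero1l overlapped medium through WT medium replicate 1, at 513 CPM, with a log2 fold change of -1.32 ± 0.18. Hif1a fell to 266, 286, 232, 225 and 292 CPM, in overlap with medium, at -0.56 ± 0.16 on the log2 scale (edgeR adjusted p = 0.0053). With library totals the Hif1a value was -0.39, with edgeR adjusted p = 0.089. With the position term Eno1 was no longer called (-0.34, edgeR adjusted p = 0.055). Both hydroxylases fell, Egln3 at -1.50 ± 0.15 and Egln1 at -0.46 ± 0.15, and the call of Egln1 was lost without WT medium replicate 1 or 5 or WT rapamycin replicate 1, and with the position term (edgeR adjusted p = 0.12).

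Against WT LPS the rapamycin group held 30 genes lower and 2 higher, with 26.7% and 29.6% of all genes. With library totals, where the median of all genes moved to 0.57, 25 were lower and 5 higher, against 14.6% and 52.1% of all genes. Adm differed by -4.17 ± 0.36, Pfkfb3 by -3.49 ± 0.22, Slc2a1 by -2.89 ± 0.15, Hk2 by -2.62 ± 0.15 and Hif1a by -2.21 ± 0.16 on the log2 scale. The 2 genes higher with rapamycin than with LPS were Pfkfb4 (1.26 ± 0.19) and Aldoa (0.29 ± 0.11). Gpi1 (-0.33) and Eno1 (-0.40), called lower, changed sign with library totals (0.16 and 0.08). With the position term Gpi1 was not called (edgeR adjusted p = 0.095).

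**Figure D4:**
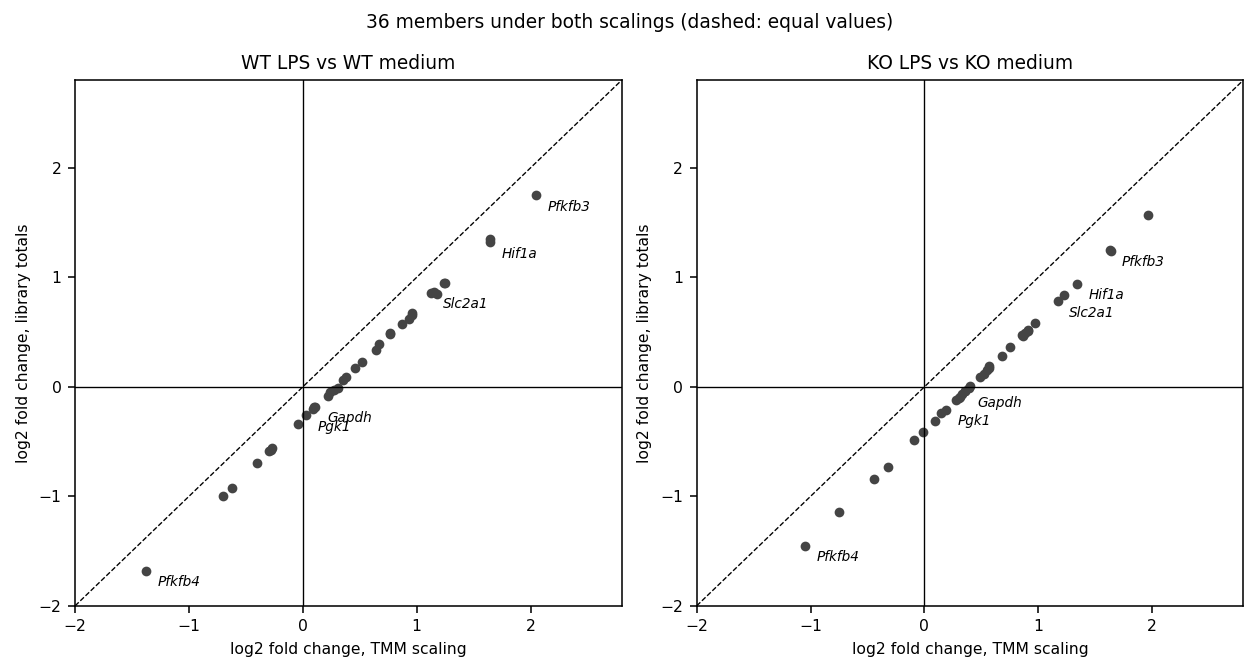
Log2 fold change of the 36 genes with LPS against medium under TMM scaling (horizontal axis) and under scaling to library totals (vertical axis), for WT (left) and KO (right) cells, 1 point per gene. All points lie below the dashed line of equal values by a nearly constant amount, so that Gapdh and Pgk1 fall on opposite sides of 0 while Pfkfb3, Hif1a and Slc2a1 stay above 0 on both axes.

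KO and WT cells differed at few of the 36 genes. In medium 2 were higher in KO cells and 0 lower, against 6.61% and 2.31% of all genes. With LPS 6 were higher and 0 lower, against 4.31% and 1.75%. With 4µ8C 1 was higher and 0 lower, against 0.428% and 0.525%, and with 4PBA 0 were called in edgeR, against 0.185% and 0.311%. At an unadjusted p under 0.05, 5 genes passed with 4PBA, all higher in KO cells, and DESeq2 called 0. With library totals the splits were 4 higher and 1 lower in medium, against 6.46% and 1.95% of all genes. They were 6 and 0 with LPS, against 3.36% and 3.04%, and 2 and 0 with 4µ8C, against 0.418% and 0.428%. In medium the genotypes coincide with outer and inner codes, so genotype and position alone cannot be told apart there without a term estimated from the other groups. With LPS, 4 of 5 KO libraries had inner codes and all WT libraries outer ones. With that term 0 genes were called in medium in edgeR, against 0.574% higher and 0.0875% lower of all genes. With LPS 3 were called, all higher, against 1.01% and 0.554%, and with 4µ8C 1 was, against 0.476% and 0.603%.

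In medium, Ero1l stood at 513, 994, 1149.7, 1359 and 1629 CPM in WT and at 2246, 1515, 1579, 2345 and 1736 CPM in KO cells. The groups overlapped, and the log2 fold change was 0.74 ± 0.18 (edgeR adjusted p = 0.0038), or 0.43 with the position term (edgeR adjusted p = 0.51). Slc16a1 stood at 2.45, 7.22, 3.55, 6.25 and 4.34 CPM in WT and 9.95, 13.1, 10.1, 8.72 and 10.8 CPM in KO medium, at 3 to 64 expected counts per library over all groups. Its groups did not overlap, and the log2 fold change was 1.14 ± 0.29 (edgeR adjusted p = 0.0065), or 0.94 with the position term (edgeR adjusted p = 0.32). Leaving out WT medium replicate 1 gave 5 called genes, WT medium replicate 5 gave 4 and KO medium replicate 3 gave 4. Adm, at 0.78 ± 0.27, was called without any 1 of these 3 libraries.

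With LPS the genes higher in KO cells were P4ha2, Adm, Ndrg1, Eno1, Tpi1 and Gapdh. P4ha2 stood at 60.9, 68.1, 55.8, 92.6 and 104 CPM in WT LPS and 166, 111, 111, 133 and 130.3 CPM in KO LPS, with no overlap. Its log2 fold change was 0.76 ± 0.18 (edgeR adjusted p = 0.0051), and it kept its call in each fit that left out 1 of these 10 libraries. Adm stood at 68.2, 71.3, 53, 54.2 and 73.4 CPM in KO LPS, in overlap with the WT LPS values through WT replicate 5, with a log2 fold change of 0.86 ± 0.25 (edgeR adjusted p = 0.029). Gapdh stood at 9711, 9853, 9137, 9553 and 9608 CPM in WT LPS and 11445, 12803, 11962, 12652 and 12546 CPM in KO LPS. Eno1 stood at 2466, 2736, 2277, 2832 and 3250.2 and 3385, 3786, 3729, 3489.6 and 3424 CPM in the same groups. Both were higher in every KO library than in any WT library, by 0.36 ± 0.11 and 0.39 ± 0.12 on the log2 scale (edgeR adjusted p = 0.034 and 0.036). Tpi1 stood at 2459, 2685, 2343, 2716 and 3107 and 3186, 3478, 3379, 3744 and 3482 CPM, also without overlap (0.38 ± 0.12). Ndrg1 stood at 454, 544, 308, 414 and 539 and 787, 822, 632, 522 and 563 CPM, with overlap (0.56 ± 0.16). The called number fell to 1 without WT LPS replicate 3 or 4 or KO LPS replicate 2, to 2 without WT LPS replicate 1 or 2, and to 3 without KO LPS replicate 3, 4 or 5. With the position term P4ha2, Eno1 and Tpi1 were called.

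With 4µ8C, P4ha2 was again higher in KO cells, at 58.2, 74.7, 68.9, 89.8 and 74.2 CPM in WT and 130.4, 121, 114, 143 and 122 CPM in KO libraries. The groups did not overlap, with a log2 fold change of 0.80 ± 0.18 (edgeR adjusted p = 0.018), and the call was lost without WT 4µ8C replicate 1 or 3 or KO 4µ8C replicate 4. With 4PBA its values were 81.5, 70.6, 76.8, 105 and 86.6 CPM in WT and 129, 133, 101, 118 and 151 CPM in KO libraries, and the difference of 0.58 ± 0.18 did not pass (edgeR adjusted p = 0.15).

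**Figure D5:**
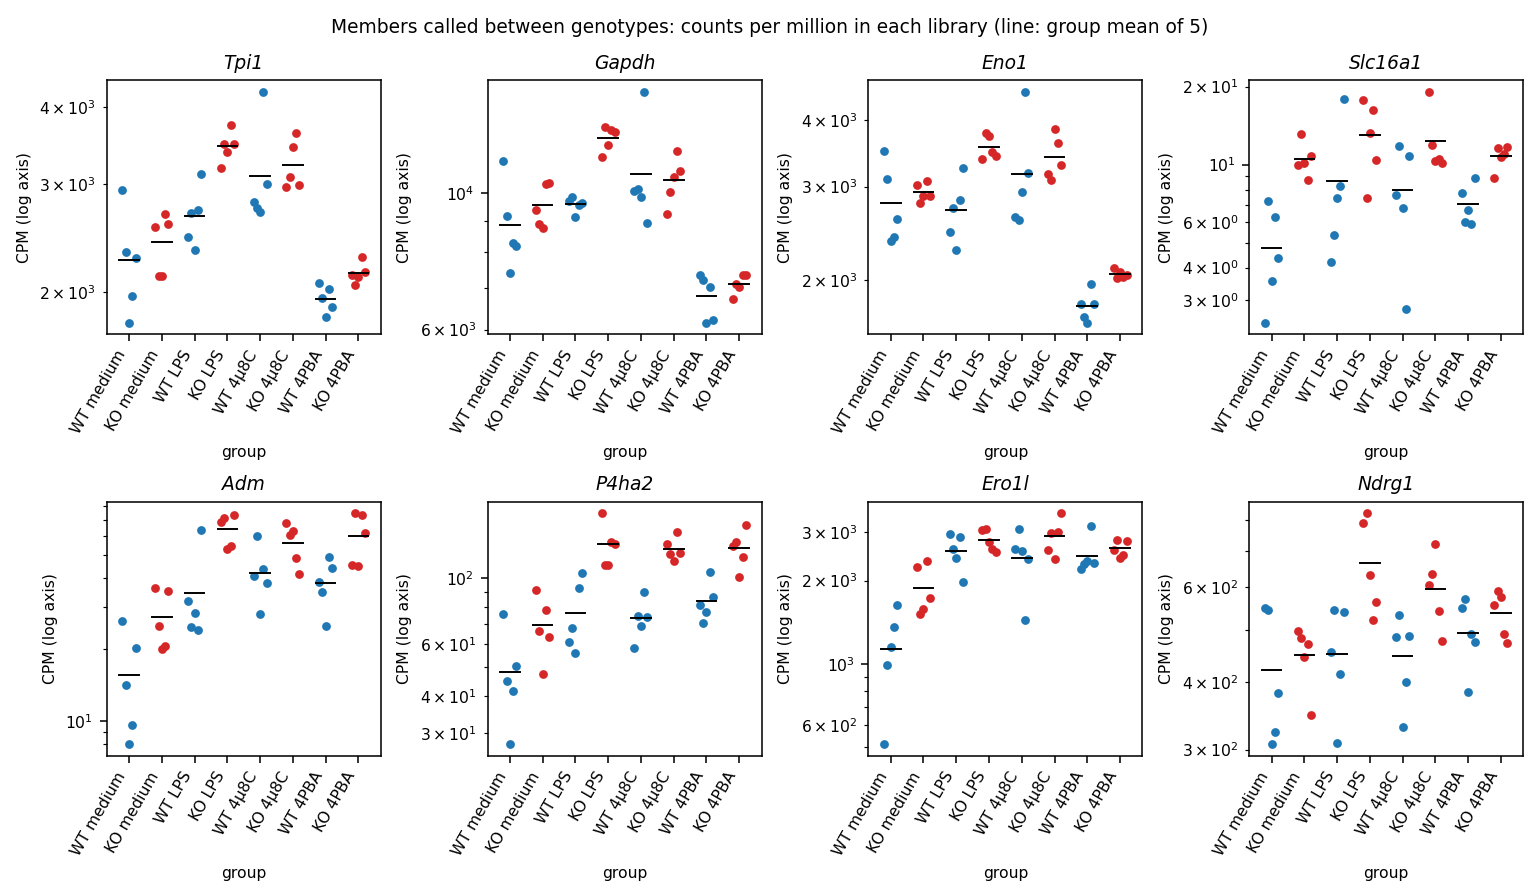
CPM on log axes of the 8 genes called between genotypes under at least 1 condition, 1 point per library (blue WT, red KO) and a line at the mean of 5. Red points lie above blue ones for P4ha2 with LPS and 4µ8C and for Gapdh, Eno1 and Tpi1 with LPS, where the gaps are 0.36, 0.39 and 0.38 on the log2 scale.

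Whether the responses differed between genotypes was tested as an interaction. Of the 36 genes, 0 were called in edgeR for LPS, 4µ8C or 4PBA, against 0.00972%, 1.79% and 4.73% of all genes, and DESeq2 called 0 in each. At an unadjusted p under 0.05, 3 genes passed for LPS, 0 for 4µ8C and 1 for 4PBA. Ero1l, whose rise was smaller in KO cells, had interactions of -0.61 ± 0.25 for LPS, -0.48 ± 0.25 for 4µ8C and -0.65 ± 0.25 for 4PBA (KO minus WT, log2; edgeR adjusted p = 0.61, 0.54 and 0.19). For 4PBA it was called without WT medium replicate 5. Pfkfb3 had interactions of -0.42 ± 0.28, -0.25 ± 0.28 and -0.51 ± 0.28, and Hif1a of -0.30 ± 0.22, -0.11 ± 0.22 and -0.08 ± 0.22.

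With LPS 18.8% of all genes tested rose and 21.3% fell in WT cells, and 16.7% and 18.5% did in KO cells. With 4PBA 22.4% rose and 21.3% fell in WT cells, and 17.0% and 16.2% did in KO cells. The rapamycin shares were 9.68% and 13.5%. Library totals made the LPS shares 10.7% and 38.5% in WT and 7.28% and 46.5% in KO cells. The rapamycin shares became 17.3% and 8.59%. The lists of related genes that follow are read beside the shares of their own comparison. Of 25 tested genes on a list of other HIF targets, 10 rose and 1 fell with LPS in WT cells, 11 rose and 0 fell in KO cells, and 0 rose and 13 fell with rapamycin. With library totals those splits became 7 and 4, 7 and 2, and 2 and 12. Nos2, inducible nitric oxide synthase, rose with LPS by 1.81 ± 0.18 on the log2 scale in WT cells and fell with rapamycin, with a log2 fold change of -3.29 ± 0.19. In the pentose phosphate pathway, which branches off at glucose 6-phosphate, calls were all in the direction of lower levels with LPS and 4PBA. Of 7 tested genes 0 rose and 6 fell with LPS in WT cells, 0 and 4 in KO cells, 0 and 6 with 4PBA in WT cells and 0 and 5 in KO cells. With 4PBA in WT cells 4 of the 7 fell with the position term, and with library totals 6 fell with LPS in KO cells, while the other counts did not move. Pgd, phosphogluconate dehydrogenase, changed with 4PBA by -1.89 ± 0.17 in WT and -1.60 ± 0.17 in KO cells. Of 11 tested genes for pyruvate entry into mitochondria, 1 rose and 4 fell with LPS in each genotype. Library totals gave 0 higher and 8 lower in WT and 0 and 9 in KO cells. Pdp1, a phosphatase that activates pyruvate dehydrogenase, was at -1.41 ± 0.28 in WT and -1.18 ± 0.27 in KO cells. Of 11 tested genes of other glycolysis and glucose transport, 2 rose and 3 fell with LPS in WT and 3 and 3 in KO cells. These counts were 1 and 5 in WT and 2 and 6 in KO cells with library totals. Slc2a6, a lysosomal hexose transporter, rose by 1.22 ± 0.19 in WT cells. Of 10 tested glycogen genes 2 rose and 4 fell, of 10 HIF regulators 1 rose and 1 fell, and of 11 regulators linked to glucose and mTORC1 0 rose and 3 fell with LPS in WT cells. Under library totals the splits of these lists were 2 and 6, 0 and 2, and 0 and 5.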

How the data were processed

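Gene-level RSEM files, 1 for each of 45 libraries and each with 23420 genes, were used as the authors deposited them. Per the file headers they hold expected counts, of which 9.09% were not whole, and TPM values, which RSEM scaled to a fixed sum before they were deposited. The submitters' processing notes name bcl2fastq and RSEM. No aligner, genome build or annotation is named there, and each is not given in the sources used here. Coordinates are therefore those of RefSeq promoters (GRCm38.p6) alone.

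Expected counts were rounded and tested in R 4.3.3 with edgeR 4.0.16, which uses limma 3.58.1. TMM factors scaled the libraries, filterByExpr kept 10287 genes, and a robust quasi-likelihood F test, two-sided, used group means of all 45 libraries (36 residual degrees of freedom, common dispersion 0.037). Calls are Benjamini-Hochberg adjusted p under 0.05 over all genes tested, SEs come from the F statistic, and no other interval is given. TPM values served only to compare levels between genes. The scripts were tested on simulated data. The Rn45s gene took 8.39% to 12.73% of counts.

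Alternatives were DESeq2 1.42.0, its size factors in edgeR, no filter, replicate number as a block, position as a term, the compared groups alone, leaving out each library and, chosen after seeing the data, library totals. Replicate numbers paired libraries where every same-numbered correlation of deviations over 2000 genes exceeded 0.1. This held for 4PBA against medium and against LPS in both genotypes, and for KO LPS and KO 4µ8C against KO medium and KO 4µ8C against KO LPS. The rule did not require the same number to be the best match. It was the best for 2 of 5 libraries in both KO 4µ8C comparisons and 3 of 5 for KO 4PBA against medium. For KO 4PBA against LPS it was the best for 4 of 5, and in the others for 5 of 5. The labels call the replicates biological without naming animals. The p-values thus set group differences against the spread between libraries within groups, estimated over all 45, and the spread between animals is not known.

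The 36 genes and all lists were chosen with earlier results of these data known. Any of the 36 could be named, values in every library are given for those called in most comparisons with medium or between genotypes, and list genes were named from the 5 largest called changes per comparison with at least 10 CPM in the higher group. A list gene that met this rule is not reported here.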

Additional observations from a re-analysis of the deposited data

Results flagged for a closer look

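In each of 324 sets of 5 libraries (36 genes in 9 groups), the highest or lowest library was set apart where its gap to the nearest other took up an unusually large share of the range. This gave 27 values. Chance flags about 1 in 20 groups. No cause was tested. WT 4µ8C replicate 4, the library with the lowest total, accounted for 10 of them. Its Hk1 level was 92.6 CPM against 234 to 289 CPM in the other 4. Its Pfkfb4 level was 6.48 CPM against 13.3 to 15.7 CPM in the other 4. Its Aldoa level was 4686 CPM against 2793 to 3120.5 CPM in the other 4. Tpi1 stood there at 4233 CPM against 2699 to 2998 CPM in the other 4. Gapdh stood there at 14579 CPM against 8932 to 10127 CPM in the other 4. Pgk1 stood there at 2791 CPM against 1971 to 2067 CPM in the other 4. Its Pgam1 level was 4357 CPM against 2857 to 2948 CPM in the other 4. Ldha stood there at 11135 CPM against 6897 to 7819 CPM in the other 4. Its Egln3 level was 2007 CPM against 1239 to 1417 CPM in the other 4. Its Bnip3 level was 1786 CPM against 1189.6 to 1346 CPM in the other 4.

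In KO 4PBA replicate 1, Pgam1 stood at 1796 CPM against 1922 to 1951 CPM, and Ldha stood at 4697 CPM against 4906 to 4951 CPM, and P4ha1 stood at 484 CPM against 619 to 661 CPM. In KO 4PBA replicate 2, Pfkfb4 stood at 18.9 CPM against 25.7 to 27.9 CPM. In KO 4PBA replicate 3, Slc2a1 stood at 552 CPM against 589.6 to 602 CPM. In KO 4µ8C replicate 1, Slc16a1 stood at 19.1 CPM against 10.1 to 11.9 CPM. In KO medium replicate 4, Gpi1 stood at 3032 CPM against 2556 to 2658 CPM. In WT 4PBA replicate 4, Ero1l stood at 3139 CPM against 2200.1 to 2347 CPM. In WT 4PBA replicate 5, P4ha1 stood at 491 CPM against 631 to 666 CPM. In WT LPS replicate 5, Aldoc stood at 53.8 CPM against 89.4 to 102 CPM, and Adm stood at 63.4 CPM against 24 to 32 CPM, and P4ha1 stood at 771 CPM against 867 to 895 CPM. In WT medium replicate 1, Pdk1 stood at 61.8 CPM against 107 to 119 CPM. In WT medium replicate 5, Eno3 stood at 1.09 CPM against 2.94 to 3.55 CPM, and Vegfa stood at 10.2 CPM against 3.26 to 5.15 CPM. In WT rapamycin replicate 5, Pfkfb3 stood at 121 CPM against 68.4 to 76.8 CPM, and Vegfa stood at 3.99 CPM against 1.83 to 2.44 CPM.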

How the results depend on the processing

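In 120 of 133 recounts of called genes under another setting the count stayed within 1.5 times the value given. Counts moved as follows. KO against WT in medium gave 4 called genes with the replicate block, 0 with the position term, 1 with the compared groups alone, 5 with DESeq2 and 5 with library totals, in place of 2, and leaving out 1 library gave 2 to 5. KO against WT with LPS gave 2 with no filter and 3 with the position term, in place of 6, and 1 to 6 without 1 library. KO against WT with 4µ8C gave 2 with the replicate block, with DESeq2 and with library totals, in place of 1, and 0 to 1 without 1 library. KO against WT with 4PBA gave 1 with the replicate block and 1 with the groups alone, in place of 0. WT 4PBA against medium gave 13 with the position term, in place of 21. The 4PBA interaction gave 0 to 1 without 1 library. Where replicate numbers paired libraries, the replicate block kept every total within 1.5 times, at 24 in place of 21 and 20 in place of 17 for 4PBA against medium in WT and KO cells, 25 in place of 23 and 24 in place of 21 against LPS, and 27 in place of 24 for KO LPS against medium, with no gene changed for KO 4µ8C. Causes were not tested.

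Library totals, an alternative chosen after seeing the data, reversed 14 log2 fold changes, since the scaling moved the median of all genes. With LPS against medium in WT cells Gapdh was -0.18, Pgk1 -0.26 and Pgam1 -0.025, and in KO cells Gapdh was -0.036, Pgk1 -0.21, Pgam1 -0.012, Pfkl -0.096 and Pfkp -0.24. With 4µ8C Gapdh was -0.086 in WT and -0.20 in KO cells, and Pfkp -0.26 and -0.032. With rapamycin against LPS Gpi1 was 0.16 and Eno1 0.082. Every other gene and alternative kept its direction or was not called. Low counts limit Eno2, Eno3, Ldhb, Pfkm, Slc16a1 and Vegfa.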
